A study of Mus musculus with 13 samples.

Results

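Caveolae are flask-shaped pits of the plasma membrane, and the 8 genes described here encode their coat together with regulators of vesicle transport across the endothelium. The set is a list of names: the caveolins *Cav1* and *Cav2*, the cavins *Cavin1*, *Cavin2* and *Cavin3*, the neck ATPase *Ehd2*, the transcytosis suppressor *Mfsd2a* and the diaphragm protein gene *Plvap*. All 8 were found among the 47643 genes counted in the series, and all 8 passed the filter on low counts that left 17285 genes for testing.

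The data are RNA-seq counts from neurovasculature isolated from the brains of 13 male CD1 mice aged 8 to 10 weeks, with 1 library for each mouse. Sham-vehicle mice (n = 4) received no LPS, and the series' design text names PBS as the alternative to LPS. LPS-vehicle mice (n = 5) and LPS-CPD-4645 mice (n = 4) were injected intraperitoneally at 0, 6 and 24 h with *Salmonella enterica* Typhimurium lipopolysaccharide (LPS), 3 mg/kg each time. The drug CPD-4645 is an inhibitor of the 2-arachidonoylglycerol-degrading enzyme monoacylglycerol lipase (MAGL), and was dosed subcutaneously at 10 mg/kg, 30 min after each LPS injection per the labels, in a vehicle of DMSO, Cremophor and saline. The study's text also gives a longer delay. All brains were collected at 28 h and were not perfused, so blood in the vessels is part of the material. No group received CPD-4645 without LPS, so its effect in unchallenged vessels was not measured. The samples are outbred mice of 1 sex and 1 time point.

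In the brain, capillary endothelium holds few caveolae and few vesicles that carry cargo across the cell, and this low rate of transcytosis is part of the blood-brain barrier. Caveolin-1 builds the caveolar coat with caveolin-2, and cavins assemble around it, with cavin-1 needed for caveolae to form. *Mfsd2a* encodes a transporter of lysophosphatidylcholine carrying docosahexaenoic acid, and the lipid composition that it maintains in brain endothelium keeps caveolar vesicles from forming. *Plvap* encodes the protein of the diaphragms that span caveolae and fenestrae, which mature barrier vessels normally lack and vessels of the choroid plexus keep.

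The caveolin genes lie next to each other on chromosome 6, and both fell after LPS challenge, whereas *Mfsd2a* on chromosome 4 rose in the same comparison, so the sequences just upstream of these 3 genes are shown. RefSeq start sites matched 6 of the 8 genes. The *Cav2* gene (ENSMUSG00000000058, chr6:17281185-17289115, plus strand) ends 17219 bases before *Cav1* (ENSMUSG00000007655, chr6:17306335-17341452, plus strand) begins, and *Mfsd2a* (ENSMUSG00000028655) covers chr4:122946850-122961188 on the minus strand. Each sequence below covers 260 bases on GRCm38.p6, ends 10 bases into the gene, and runs 5′ to 3′ on the gene's strand. The windows are chr6:17306085-17306344 for *Cav1*, chr6:17280935-17281194 for *Cav2* and chr4:122961179-122961438 for *Mfsd2a*. Capitals mark a match on either strand to any of 4 short motifs: the TATA box (TATAAA), the GC box that Sp1 binds (GGGCGG), the core of TCF and LEF sites (CTTTGA) and that of ETS sites (CGGAAG).
Cav1: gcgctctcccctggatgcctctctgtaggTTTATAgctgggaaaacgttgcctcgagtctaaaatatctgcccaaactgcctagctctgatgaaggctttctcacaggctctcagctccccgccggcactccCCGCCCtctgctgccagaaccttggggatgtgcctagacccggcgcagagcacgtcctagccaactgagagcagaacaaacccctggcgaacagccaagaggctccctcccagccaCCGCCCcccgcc
Cav2: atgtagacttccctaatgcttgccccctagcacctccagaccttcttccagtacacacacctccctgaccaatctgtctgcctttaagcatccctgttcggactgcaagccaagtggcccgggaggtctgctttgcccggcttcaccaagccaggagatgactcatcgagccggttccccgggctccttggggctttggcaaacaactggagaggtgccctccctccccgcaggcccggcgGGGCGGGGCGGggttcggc
Mfsd2a: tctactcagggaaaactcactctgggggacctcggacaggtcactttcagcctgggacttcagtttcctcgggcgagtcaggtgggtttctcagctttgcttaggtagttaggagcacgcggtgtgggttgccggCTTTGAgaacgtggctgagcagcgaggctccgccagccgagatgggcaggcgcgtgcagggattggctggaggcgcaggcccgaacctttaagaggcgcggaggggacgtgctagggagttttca
The *Cav1* window holds a TATA box match beginning at position -221 from the start site and GC box matches at -118 and -2, all on the opposite strand. In the *Cav2* window a pair of overlapping GC box matches begins at -9 and -4, and in the *Mfsd2a* window the only match is the TCF and LEF core at -115. Of 32851 RefSeq promoter windows of 300 bases, 35.7% hold the GC box letters, 13.6% the TATA box, 16.0% the TCF and LEF core and 16.9% the ETS core. No window of the 6 matched genes holds the ETS core. A match is a match of letters only, and no binding was measured.

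The remaining genes are spread over the genome (GRCm38, GENCODE M21 positions). *Cavin1* (ENSMUSG00000004044) lies at chr11:100956733-100970887 and *Ehd2* (ENSMUSG00000074364) at chr7:15946958-15967567, both on the minus strand with no overlapping gene. *Cavin2* (ENSMUSG00000045954) lies at chr1:51289126-51302960 on the plus strand and *Cavin3* (ENSMUSG00000037060) at chr7:105480083-105482300 on the minus strand. *Plvap* (ENSMUSG00000034845) lies at chr8:71497765-71511752 on the minus strand. Genes on the opposite strand overlap *Cav1* and *Cav2* (*Gm15581*, at most 8 counts in a library), *Cavin2* (*9330175M20Rik*, at most 17 counts), *Cavin3* (*Gm45667*, no value here) and *Plvap* (*Gtpbp3*). Which strand column the counts came from is not stated, so reads of such pairs could have been assigned to either gene.

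Total counts ran from 7813559 to 55133373 per library, a 7.06-fold range, and mouse 3 of the LPS-vehicle and mouse 1 of the LPS-CPD-4645 group had the shallowest libraries. The lowest count of any of the 8 genes was 54, for *Cavin2* in LPS-vehicle mouse 3, so none of them was near 0. The fraction also held RNA of brain parenchyma. Averaged per gene and per kilobase of exon (RPKM), 10 neuronal markers stood at 306 to 434 RPKM, 12 endothelial markers at 10.6 to 26.3 RPKM and 8 smooth muscle markers at 1.16 to 3.98 RPKM, although every marker on these 3 lists was detected in each group. The endothelial list (*Cldn5*, *Pecam1*, *Cdh5* and others) summed to 271 to 425 CPM (read counts scaled to a common library total by TMM) in sham-vehicle mice, 389 to 671 CPM with LPS alone and 352 to 484 CPM with LPS and CPD-4645. Of its 12 genes, 6 rose and 1 fell after LPS challenge, and 5 fell and none rose with CPD-4645. Of the 8 smooth muscle markers, 5 fell after LPS challenge (median log2 change -1.10) and none passed the test with CPD-4645. Sham-vehicle mouse 4 stood apart from the other 3 in its group, with the lowest endothelial sum (271 CPM), the highest oligodendrocyte sum (7564 CPM, against 5328 to 5821 CPM) and the highest mitochondrial share of counts (12.7%, against 6.47% to 8.92%). It also had the lowest sham-vehicle level of *Cav1*, *Cavin1*, *Cavin3*, *Ehd2* and *Mfsd2a*. Without it, the calls among the 8 genes differed for *Cav2* after LPS challenge and for *Ehd2* between LPS-CPD-4645 and sham-vehicle mice, both given below. In bulk tissue, fewer cells of a type and less RNA per cell cannot be told apart.

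**Figure D1:**
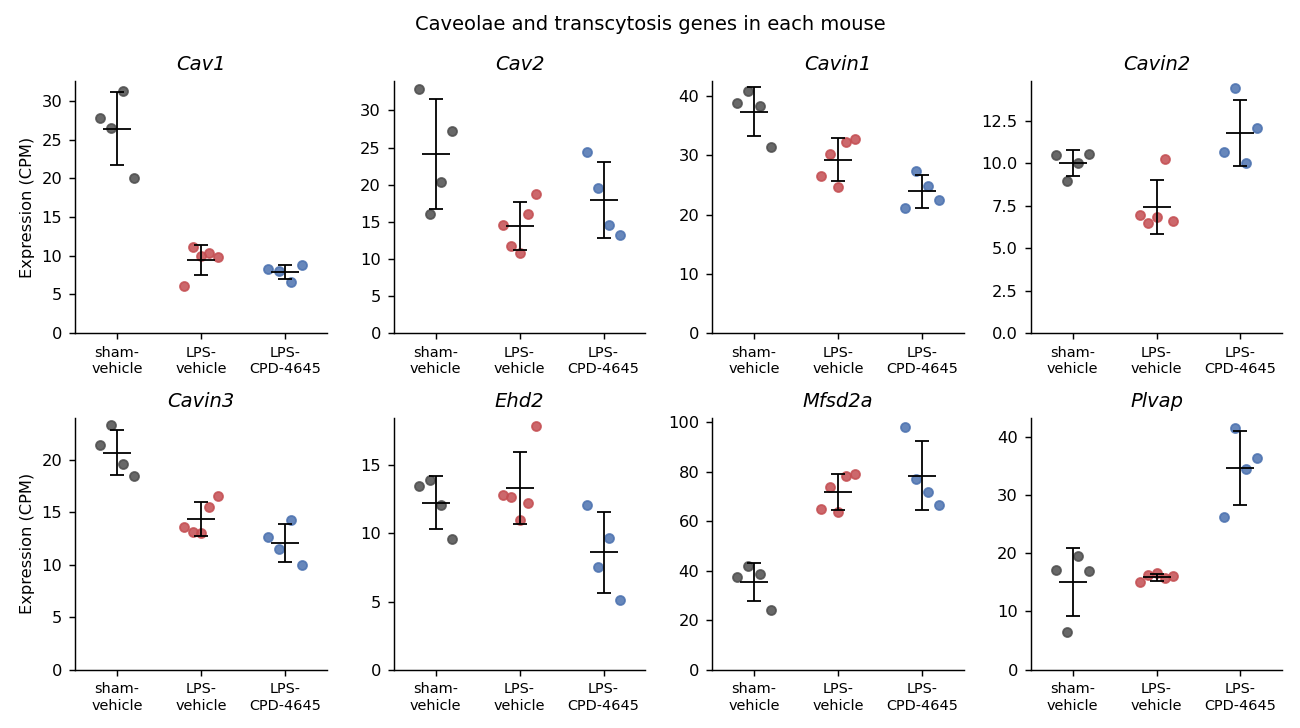
Expression of the 8 genes in CPM (vertical axes, each starting at 0) in the 4 sham-vehicle, 5 LPS-vehicle and 4 LPS-CPD-4645 mice. Points are mice, wide bars are group means and whiskers are SD. The LPS-vehicle mice sit below every sham-vehicle mouse for *Cav1* and *Cavin3* and above them for *Mfsd2a*, and the LPS-CPD-4645 mice sit above all others for *Plvap*.

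After LPS challenge, 5 of the 8 genes passed an adjusted p of 0.05 by edgeR's quasi-likelihood test (Benjamini-Hochberg over 17285 genes), against 19.9% of all genes tested (11.1% higher and 8.86% lower). Of these, *Cav1*, *Cav2*, *Cavin1* and *Cavin3* fell and *Mfsd2a* rose. Without sham-vehicle mouse 1 the count was 3 (1 higher and 2 lower, against 15.4% of all genes), since *Cav2* and *Cavin1* no longer passed. With the study's additional demand of a 2-fold change, *Cav1* (lower) and *Mfsd2a* (higher) were left, against 5.68% of all genes (4.68% higher and 0.995% lower). The median log2 change of the 8 genes was -0.39, and that of all genes tested was -0.00065. Of the 8 genes, 1 had all LPS-vehicle mice above and 2 had them below the sham-vehicle mice, against 9.68% and 8.44%, together 18.1%, of all genes.

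*Cav1*, the principal structural protein of caveolae, showed the largest change of the 8 genes. Its level was 27.9, 26.5, 31.3 and 20.05 CPM in the 4 sham-vehicle mice, and 6.15, 11.2, 9.96, 10.3 and 9.81 CPM in the 5 LPS-vehicle mice. The highest LPS-vehicle mouse was therefore below the lowest sham-vehicle mouse. The means were 26.5 ± 4.73 CPM (SD, n = 4) and 9.48 ± 1.94 CPM (SD, n = 5). *Cav1* was 2.79-fold lower after LPS challenge, with a log2 change of -1.48 (SE 0.17, 95% interval -1.83 to -1.13, adjusted p = 4.65e-06). The value ranked 208 of 17285 genes by p. In the 4 LPS-CPD-4645 mice *Cav1* stood at 8.30, 8.04, 6.66 and 8.79 CPM. They lay within the range of the LPS-vehicle mice only through LPS-vehicle mouse 1 (6.15 CPM), and below every other LPS-vehicle mouse (9.81 to 11.2 CPM). The mean was 7.95 ± 0.912 CPM (SD, n = 4). The difference between the LPS groups, given throughout as drug-treated minus LPS-vehicle mice, did not pass the test, at -0.26 on the log2 scale (SE 0.17, 95% interval -0.62 to 0.11, adjusted p = 0.278). With 1 mouse left out at a time it ran from -0.38 to -0.17 and never passed (lowest adjusted p = 0.0691). Against sham-vehicle mice, LPS-CPD-4645 mice were 3.33-fold lower (log2 change -1.74, SE 0.18, adjusted p = 1.23e-06), again without overlap.

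*Cav2*, whose product joins caveolin-1 in the coat and depends on it to reach the membrane, fell less and varied more. The sham-vehicle mice had 32.9, 16.1, 20.4 and 27.2 CPM and the LPS-vehicle mice 14.6, 11.7, 10.8, 16.1 and 18.8 CPM. The groups overlapped, since the LPS-vehicle mouse at 18.8 CPM was above the sham-vehicle mouse at 16.1 CPM. The means were 24.1 ± 7.39 and 14.4 ± 3.23 CPM, and *Cav2* was 1.66-fold lower (log2 change -0.73, SE 0.21, adjusted p = 0.0207). The call was lost without sham-vehicle mouse 1 (adjusted p = 0.103) and without sham-vehicle mouse 4 (adjusted p = 0.0640). In LPS-CPD-4645 mice the levels were 24.4, 19.5, 14.5 and 13.2 CPM, overlapping both other groups, with a mean of 17.9 ± 5.13 CPM. Neither the difference from LPS-vehicle (0.29, SE 0.22, 95% interval -0.16 to 0.75, adjusted p = 0.323) nor that from sham-vehicle mice (-0.44, SE 0.23, 95% interval -0.91 to 0.03, adjusted p = 0.132) passed the test. The latter did pass in voomWithQualityWeights (adjusted p = 0.0435), without the 2 shallowest libraries (adjusted p = 0.0405) and without sham-vehicle mouse 2 (adjusted p = 0.0488).

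Ratios of counts within a library do not depend on its depth or scaling. The ratio of *Cav1* to *Cavin1* counts was 0.706 ± 0.0829 (SD) in sham-vehicle mice, 0.325 ± 0.0667 with LPS alone and 0.337 ± 0.0652 with LPS and CPD-4645. Each LPS-vehicle mouse was at or below 0.405 and each sham-vehicle mouse at or above 0.639. The log2 ratio differed by -1.14 between LPS-vehicle and sham-vehicle mice (p = 0.0159, exact permutation test, two-sided, adjusted p = 0.0571 over 6 tests), and 0.0159 is the smallest p that 4 against 5 mice allow. Between the LPS groups it differed by 0.057 (exact p = 0.810, adjusted p = 0.810). The *Cav1* to *Cav2* ratio was 1.19 ± 0.467, 0.691 ± 0.236 and 0.469 ± 0.140 in the same order of groups. It differed by -0.77 after LPS challenge (exact p = 0.0952, adjusted p = 0.143), by -0.53 with CPD-4645 (exact p = 0.159, adjusted p = 0.190) and by -1.30 between LPS-CPD-4645 and sham-vehicle mice (exact p = 0.0286, adjusted p = 0.0571). For *Cav1* to *Cavin1* this last difference was -1.08 (exact p = 0.0286, adjusted p = 0.0571). The smallest p that 4 against 4 mice allow is 0.0286. These ratios were chosen after the expression values had been seen. The 3 tests at their smallest possible p could not pass the adjustment over 6 tests with the other p-values as they were, so their adjusted p says nothing of how firm the differences are.

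Among the cavins, *Cavin1*, the cavin that caveolae cannot form without, had the smallest change of the genes that passed the test after LPS challenge. Its levels were 38.9, 40.9, 38.3 and 31.4 CPM in sham-vehicle mice and 26.5, 30.2, 24.6, 32.3 and 32.8 CPM in LPS-vehicle mice. The groups overlapped only through sham-vehicle mouse 4, which was below 2 of the LPS-vehicle mice. *Cavin1* was 1.27-fold lower (37.4 ± 4.16 against 29.3 ± 3.62 CPM, log2 change -0.35, SE 0.11, adjusted p = 0.0373). The call was lost in 6 of the 13 fits that left out 1 mouse (sham-vehicle mouse 1, 2 or 3, or LPS-vehicle mouse 1, 2 or 3), with adjusted p from 0.0520 to 0.105, and without the 2 shallowest libraries (-0.29, adjusted p = 0.0734). In LPS-CPD-4645 mice *Cavin1* stood at 21.1, 27.3, 24.8 and 22.4 CPM, all below every sham-vehicle mouse (log2 change -0.64, SE 0.12, adjusted p = 0.00041). Against LPS-vehicle mice the difference was -0.30 (SE 0.11, 95% interval -0.54 to -0.06, adjusted p = 0.0581), just outside the threshold. It passed with limma-voom (adjusted p = 0.0475), with a mean count of at least 50 (adjusted p = 0.0469), without LPS-vehicle mouse 3 (adjusted p = 0.0278) and without LPS-CPD-4645 mouse 2 (adjusted p = 0.0410).

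*Cavin3*, which binds cavin-1 and protein kinase C delta, fell in the same comparison. Sham-vehicle mice had 21.4, 23.3, 19.6 and 18.4 CPM and LPS-vehicle mice 13.6, 13.1, 12.98, 15.5 and 16.5 CPM. No LPS-vehicle mouse reached the lowest sham-vehicle mouse. *Cavin3* was 1.44-fold lower after LPS challenge (20.7 ± 2.14 against 14.4 ± 1.59 CPM, log2 change -0.52, SE 0.13, adjusted p = 0.00781). With CPD-4645 the levels were 12.7, 11.5, 14.2 and 9.93 CPM, overlapping those of LPS-vehicle mice. That difference did not pass the test (-0.26, SE 0.13, 95% interval -0.53 to 0.02, adjusted p = 0.154), while the difference from sham-vehicle mice did (-0.78, SE 0.14, adjusted p = 0.000263).

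*Cavin2*, which helps to shape caveolar membranes and is enriched in endothelium of several organs, followed another pattern. The sham-vehicle mice had 10.5, 8.93, 10.0 and 10.6 CPM and the LPS-vehicle mice 6.97, 6.46, 6.81, 10.2 and 6.62 CPM. LPS-vehicle mouse 4 lay among the sham-vehicle mice and the other 4 lay below all of them. The difference did not pass the test with all mice (-0.43, SE 0.16, 95% interval -0.77 to -0.08, adjusted p = 0.0771) and did pass without LPS-vehicle mouse 4 (-0.58, adjusted p = 0.0135) and, with all mice, in voomWithQualityWeights (-0.46, adjusted p = 0.0379). In LPS-CPD-4645 mice *Cavin2* was at 10.7, 14.4, 10.0 and 12.1 CPM, above every LPS-vehicle mouse but mouse 4. *Cavin2* was 1.59-fold higher with CPD-4645 than with LPS alone (11.8 ± 1.95 against 7.42 ± 1.59 CPM, log2 change 0.67, SE 0.16, adjusted p = 0.00538). The difference from sham-vehicle mice was 0.24 (SE 0.17, 95% interval -0.12 to 0.60, adjusted p = 0.289).

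*Ehd2* encodes an ATPase that rings the caveolar neck and keeps caveolae at the surface. Its levels were 13.5, 13.9, 12.1 and 9.58 CPM in sham-vehicle mice and 12.8, 12.7, 10.96, 12.2 and 17.9 CPM in LPS-vehicle mice, and the groups overlapped throughout. The change after LPS challenge was 0.12 (SE 0.20, 95% interval -0.31 to 0.55, adjusted p = 0.734). With CPD-4645 the levels were 12.1, 7.52, 9.67 and 5.14 CPM, of which 3 were below every LPS-vehicle mouse. *Ehd2* was 1.57-fold lower with CPD-4645 than with LPS alone (8.61 ± 2.97 against 13.3 ± 2.65 CPM, log2 change -0.65, SE 0.21, adjusted p = 0.0255). That call was lost without LPS-vehicle mouse 5 (adjusted p = 0.0710), LPS-CPD-4645 mouse 2 (adjusted p = 0.0783) or LPS-CPD-4645 mouse 4 (adjusted p = 0.0997). The difference between LPS-CPD-4645 and sham-vehicle mice was -0.53 (SE 0.22, adjusted p = 0.0653). It passed the test in limma-voom (adjusted p = 0.0237), voomWithQualityWeights (-0.68, adjusted p = 0.0101) and DESeq2 (adjusted p = 0.0474), and with a replicate block (adjusted p = 0.0286). It also passed without the 2 shallowest libraries (-0.72, adjusted p = 0.0148), without sham-vehicle mouse 4 (adjusted p = 0.0491) and without LPS-CPD-4645 mouse 1 (adjusted p = 0.0175).

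*Mfsd2a*, the suppressor of caveolar transcytosis, was the only one of the 8 genes that rose after LPS challenge by the test. It stood at 37.5, 41.8, 38.8 and 24.3 CPM in sham-vehicle mice and at 64.8, 74.0, 63.6, 78.4 and 79.0 CPM in LPS-vehicle mice. The lowest LPS-vehicle mouse was well above the highest sham-vehicle mouse. *Mfsd2a* was 2.02-fold higher (71.97 ± 7.33 against 35.6 ± 7.72 CPM, log2 change 1.02, SE 0.14, 95% interval 0.72 to 1.31, adjusted p = 4.07e-05). With CPD-4645 the levels were 98.2, 77.2, 71.8 and 66.7 CPM, overlapping those of the LPS-vehicle mice, and the highest of them came from the shallow library of mouse 1. The difference between the LPS groups was 0.12 (SE 0.14, 95% interval -0.17 to 0.40, adjusted p = 0.544). Against sham-vehicle mice *Mfsd2a* was 2.195-fold higher (78.5 ± 13.8 CPM, log2 change 1.13, SE 0.15, adjusted p = 1.11e-05), without overlap.

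*Plvap* was higher with CPD-4645, and its difference between LPS-vehicle and sham-vehicle mice did not pass the test. The sham-vehicle mice had 17.1, 6.39, 19.5 and 17.0 CPM and the LPS-vehicle mice 14.97, 16.2, 16.5, 15.7 and 16.0 CPM. The LPS-vehicle mice were close together, and sham-vehicle mouse 2 was far below all the others. The change was 0.08 (SE 0.22, 95% interval -0.38 to 0.54, adjusted p = 0.845), and without sham-vehicle mouse 2 it was -0.17 (adjusted p = 0.417). In LPS-CPD-4645 mice *Plvap* stood at 26.2, 41.5, 34.4 and 36.3 CPM, above every mouse of both other groups. It was 2.19-fold higher than with LPS alone (34.6 ± 6.36 against 15.9 ± 0.584 CPM, log2 change 1.13, SE 0.21, 95% interval 0.68 to 1.58, adjusted p = 0.00084). Against sham-vehicle mice it was 2.31-fold higher (log2 change 1.21, SE 0.23, adjusted p = 0.000461).

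*Gtpbp3*, a mitochondrial tRNA-modifying GTPase encoded on the opposite strand at *Plvap*, stood at 23.9 ± 1.38 CPM in LPS-vehicle and 19.8 ± 3.76 CPM in LPS-CPD-4645 mice (log2 change -0.27, SE 0.12, adjusted p = 0.104), a difference that did not pass the test. Choroid plexus vessels carry *Plvap*, so the 10 choroid plexus markers were summed beside it. They came to 683 to 1105 CPM in sham-vehicle mice, 401 to 660 CPM with LPS alone and 553 to 1114 CPM with LPS and CPD-4645. With CPD-4645, 2 of the 10 markers rose and none fell, with a median log2 change of -0.02. Fenestrated vessels carry *Plvap* too, and the 10 venous and fenestrated markers, *Lcn2* foremost, summed to 888 to 1645 CPM with LPS alone and 1015 to 1350 CPM with LPS and CPD-4645. Of these, none rose and 4 fell with CPD-4645 (median -0.24). The list also holds *Vwf* and *Selp*, which the study treats as markers of endothelial activation, so it does not measure fenestrated vessels alone. The part of choroid plexus tissue or of fenestrated vessels in the *Plvap* result was not tested.

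Between the LPS groups, 3 of the 8 genes passed the test (*Cavin2* and *Plvap* higher, *Ehd2* lower), against 30.5% of all genes (14.1% higher and 16.4% lower). With a 2-fold change demanded as well, *Plvap* was left, against 5.9% of all genes (1.7% higher and 4.19% lower). *Plvap* was also the only one whose groups did not overlap, against 23% of all genes (11.1% above and 12% below). The median log2 change of the 8 genes was -0.07, and that of all genes was -0.02. Of the 5 genes called after LPS challenge, none passed the test between the LPS groups, and their intervals there reached from -0.62 (*Cav1*) to 0.75 (*Cav2*).

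Between LPS-CPD-4645 and sham-vehicle mice, *Mfsd2a* and *Plvap* were higher and *Cav1*, *Cavin1* and *Cavin3* lower, which is 5 of 8 genes against 38.8% of all genes (19.5% higher and 19.3% lower). Of these, 3 (*Cav1*, *Mfsd2a* and *Plvap*) also changed at least 2-fold, against 11.1% of all genes (6.11% higher and 4.98% lower). All 5 had groups without overlap, against 37.5% of all genes (18.7% above and 18.8% below). The median log2 change of the 8 genes was -0.48, and that of all genes was -0.01. The 3 comparisons share groups, so each value is given on its own.

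**Figure D2:**
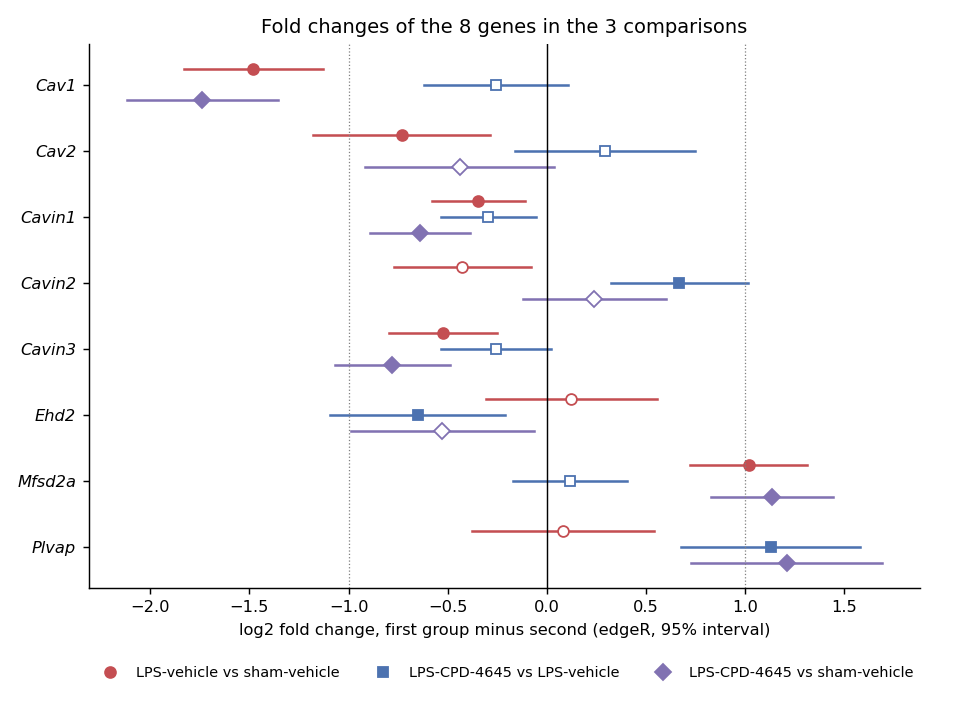
Log2 fold changes (horizontal axis, first group minus second, edgeR) of the 8 genes with 95% intervals, for LPS-vehicle against sham-vehicle (circles), LPS-CPD-4645 against LPS-vehicle (squares) and LPS-CPD-4645 against sham-vehicle mice (diamonds). Filled symbols have an adjusted p of at most 0.05 and dotted lines mark a 2-fold change. *Cav1* lies furthest to the left in both comparisons with sham-vehicle mice, and *Plvap* is the only gene past 2-fold between the LPS groups.

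The 4 endothelial lists did not move together after LPS challenge. Of the 12 general markers 6 rose and 1 fell, whereas 10 capillary markers summed to 1353 to 1540 CPM in sham-vehicle and 1115 to 1429 CPM in LPS-vehicle mice (1 higher and 5 lower, median log2 change -0.44). The 9 arterial markers summed to 197 to 214 and 175 to 190 CPM (1 higher and 4 lower, median -0.09), and the 10 venous and fenestrated markers to 269 to 359 and 888 to 1645 CPM (6 higher and 1 lower, median 1.35), a sum of which *Lcn2* alone made up 700.2 of 1209 CPM on average in LPS-vehicle mice. The fit was also run with libraries scaled on the 12 general markers in place of all genes, which is 1 choice among these lists. This scaling moved the median of all genes to -0.59, 0.39 and -0.19 in the order LPS-vehicle against sham-vehicle, LPS-CPD-4645 against LPS-vehicle, and LPS-CPD-4645 against sham-vehicle, and the values below are to be read against those medians. After LPS challenge, *Cav1* was then at -2.04 (adjusted p = 2.58e-09), *Cav2* at -1.35, *Cavin3* at -1.11, *Cavin2* at -1.03 and *Cavin1* at -0.93, all of which passed the test. *Mfsd2a* was at 0.47 (SE 0.24, adjusted p = 0.0893) and no longer passed, and *Ehd2* (-0.45) and *Plvap* (-0.50) turned to the other side of 0 without passing. The calls were thus 0 higher and 5 lower, where scaling on all genes gave 1 higher and 4 lower, and under this scaling 46.2% of all genes were called.

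Per endothelial marker RNA, the comparison of the LPS groups gave 3 higher and 0 lower calls, against 21.6% of all genes called. *Plvap* was at 1.55 (SE 0.27, adjusted p = 3.38e-05), *Cavin2* at 1.10 (adjusted p = 0.00294) and *Cav2* at 0.70 (adjusted p = 0.0401). *Ehd2* was at -0.25 (adjusted p = 0.486), so its call was lost, and *Cav1* (0.18), *Cavin1* (0.14) and *Cavin3* (0.16) turned to the other side of 0 without passing. Against sham-vehicle mice the same 5 genes were called in the same directions under both scalings, against 16.8% of all genes under this one, with *Cav1* at -1.86, *Cavin3* at -0.95, *Cavin1* at -0.79, *Mfsd2a* at 0.99 and *Plvap* at 1.05. Smooth muscle cells also make caveolae, and their 8 markers summed to 55.5 to 86.6 CPM in sham-vehicle mice, 28.9 to 45.2 CPM with LPS alone and 37.8 to 52.3 CPM with LPS and CPD-4645. Their fall accompanied that of *Cav1*, *Cav2*, *Cavin1* and *Cavin3*, and its part in those results was not tested. Markers of blood, mural and glial cells moved with the groups as well. In the order sham-vehicle, LPS-vehicle and LPS-CPD-4645, neutrophil markers summed to 1.23 to 5.62, 66.6 to 281 and 7.30 to 27.8 CPM over 10 genes. Monocyte and macrophage markers summed to 19.5 to 30.7, 102 to 220 and 51.7 to 75.03 CPM, and erythrocyte markers to 563 to 1055, 324 to 547 and 414 to 792 CPM. The 9 pericyte markers came to 265 to 387, 197 to 333 and 214 to 287 CPM, with 6 lower and 1 higher between LPS-CPD-4645 and sham-vehicle mice (median -0.92). The 10 microglial markers came to 248 to 332, 187 to 314 and 163 to 212 CPM, with 5 lower after LPS challenge and 9 lower between LPS-CPD-4645 and sham-vehicle mice (median -1.13). Of 10 oligodendrocyte markers 5 fell and 1 rose after LPS challenge, and of 10 astrocyte markers 5 rose and none fell. Of 9 tested fibroblast markers 3 fell and 1 rose after LPS challenge (median -0.53). Their summed CPM overlapped, at 132 to 148 in sham-vehicle and 130 to 163 in LPS-vehicle mice. Between LPS-CPD-4645 and sham-vehicle mice 4 of them were lower and 1 higher (median -0.07). Mitochondrial genes took 6.47% to 12.7%, 4.84% to 7.05% and 3.97% to 8.17% of the counts. The part of these in the results was likewise not tested.

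**Figure D3:**
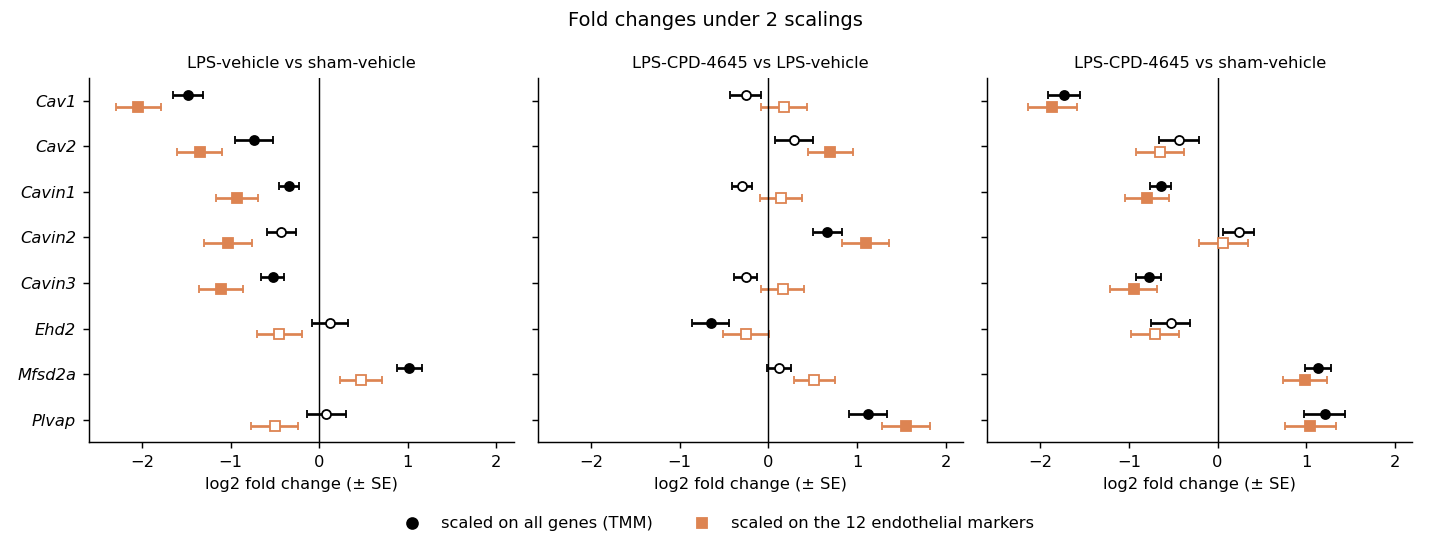
Log2 fold changes with SE (horizontal axes) of the 8 genes in the 3 comparisons, with libraries scaled on all genes (black circles) and on the 12 endothelial markers (orange squares). Filled symbols have an adjusted p of at most 0.05. After LPS challenge *Cav1* stays below 0 under both scalings while *Mfsd2a* moves from 1.02 to 0.47, and *Plvap* stays above 0 with CPD-4645 under both.

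Expressed per kilobase of exon (RPKM), which allows levels of different genes to be compared, *Mfsd2a* had the highest mean in every group. In sham-vehicle mice the order of RPKM levels was *Mfsd2a* (16.5 ± 3.59), *Cavin3* (12.4 ± 1.29), *Cavin1* (10.7 ± 1.19), *Cav1* (8.56 ± 1.53), *Plvap* (7.55 ± 2.95), *Cav2* (7.23 ± 2.22), *Cavin2* (3.28 ± 0.248) and *Ehd2* (2.40 ± 0.381). Neighbours overlapped over mice down to *Cav2*, which was apart from *Cavin2*, and *Cavin2* was apart from *Ehd2*. In LPS-vehicle mice *Mfsd2a* at 33.5 ± 3.41 RPKM stood clear of *Cavin3* (8.64 ± 0.954), *Cavin1* (8.39 ± 1.04) and *Plvap* (8.00 ± 0.294), which overlapped one another. Below a gap came *Cav2* (4.32 ± 0.970), *Cav1* (3.07 ± 0.627), *Ehd2* (2.60 ± 0.517) and *Cavin2* (2.43 ± 0.520) with overlapping neighbours. *Cav1* thus lay above *Cav2* by mean RPKM in sham-vehicle mice and below it in LPS-vehicle mice, overlapping it in both. In LPS-CPD-4645 mice *Plvap* (17.4 ± 3.20 RPKM) came next after *Mfsd2a* (36.5 ± 6.43 RPKM) and overlapped no other gene. *Cavin3* (7.26 ± 1.09), *Cavin1* (6.85 ± 0.788), *Cav2* (5.37 ± 1.54) and *Cavin2* (3.86 ± 0.637) followed with overlapping neighbours, and *Cav1* (2.57 ± 0.295 RPKM) was above *Ehd2* alone (1.68 ± 0.581 RPKM), which it overlapped.

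The genes most like 3 of the members over the 13 mice were sought among 14844 genes of at least 1 CPM by the root mean square (RMS) difference of centred log2 CPM. For *Cav1* these were *Cxcl12*, the endothelial and stromal chemokine (0.263), *Unc5b*, a netrin receptor (0.265), and *Plxnb3*, a semaphorin receptor (0.283). The nearest other members to *Cav1* were *Cavin3*, at rank 274 (0.526), and *Cavin1*, at rank 461 (0.561), while *Cav2* was at rank 2236 (0.677). For *Plvap* the nearest were *Hmgb3* (0.222), *Dis3*, a catalytic RNA exosome subunit (0.262), and *C2cd4b* (0.282), with *Cavin2* at rank 1434 (0.557). For *Mfsd2a* they were *Cmtm3* (0.203), the basement membrane collagen gene *Col4a2* (0.204) and the tensin gene *Tns2* (0.207). *Mfsd2a* and *Cav1* lay at 1.26 from each other, rank 13852 in the order from *Cav1*. These likenesses all describe the same 13 libraries.

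The wider machinery of vesicle transport was followed in 8 lists of 11 to 18 tested genes. Their counts of calls stand against 19.9% of all genes called after LPS challenge, 30.5% with CPD-4645 and 38.8% between LPS-CPD-4645 and sham-vehicle mice, and several of them rested on single mice. The share of all genes moved with the setting too. After LPS challenge it was 11.5% with no filter on low counts, 17.9% without the 2 shallowest libraries, 19% with only the groups compared, 22.6% in DESeq2, 23.9% in voomWithQualityWeights and 14.4% to 20.2% with 1 mouse left out. With CPD-4645 it was 17.7%, 28.6%, 28.6%, 33.5%, 33.7% and 22.9% to 31% in the same order, and 32.3% in limma-voom. Against sham-vehicle mice it was 37.4% without the 2 shallowest libraries, 46.1% in voomWithQualityWeights and 31.9% to 40.4% with 1 mouse left out. Of the other caveolar coat and neck genes, 11 of 12 were tested. After LPS challenge 2 rose and 2 fell, with a median log2 change of -0.08. *Ehd1*, a paralogue of *Ehd2* acting in endocytic recycling, rose from 46.9 ± 3.18 to 72.9 ± 11.7 CPM (log2 change 0.63, SE 0.11, adjusted p = 0.000303), and the neuronal *Pacsin1*, a membrane-bending protein, fell from 234.5 ± 32.9 to 163 ± 22.6 CPM (-0.52, SE 0.11). With CPD-4645, 1 rose and 1 fell: *Ehd3* was higher by 0.28 (SE 0.07) and *Ehd1* changed by -0.30 (SE 0.11, adjusted p = 0.0373), a call that 12 of 23 alternatives did not keep. Against sham-vehicle mice 3 were higher and 2 lower, among them *Ror1* (0.98, SE 0.32), a receptor kinase known to stabilize caveolae, and *Pacsin1* (-0.32, SE 0.11). These calls were lost in 5 and 7 of 23 alternatives, that of *Ror1* among others with a replicate block (adjusted p = 0.0515). The 5 calls became 1 without LPS-CPD-4645 mouse 2, 2 without sham-vehicle mouse 1 or 4, and 3 without LPS-CPD-4645 mouse 1 or 3 or without the 2 shallowest libraries. With scaling on the endothelial markers no call was left, against 16.8% of all genes.

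Among 14 receptors that carry ligands across or into the endothelium, 3 rose and 1 fell after LPS challenge (median 0.03), 3 rose and 2 fell with CPD-4645 (median 0.05), and 3 were higher and 2 lower against sham-vehicle mice (median 0.14). *Ager*, the receptor for advanced glycation end products, stood at 1.39 ± 0.546, 2.95 ± 1.34 and 6.87 ± 0.969 CPM in the sham-vehicle, LPS-vehicle and LPS-CPD-4645 mice. It was higher with CPD-4645 than with LPS alone by 1.28 (SE 0.31, adjusted p = 0.00431) and than in sham-vehicle mice by 2.30 (SE 0.34, adjusted p = 4.29e-05). Its rise with LPS alone (1.03, SE 0.33, adjusted p = 0.0344) was lost in 10 of 23 alternatives. *Fcgrt*, the neonatal Fc receptor that recycles immunoglobulin G, changed by -0.76 (SE 0.20, adjusted p = 0.0105) after LPS challenge and by -1.12 (SE 0.21) between LPS-CPD-4645 and sham-vehicle mice. *Cd320*, the receptor for transcobalamin-bound vitamin B12, changed by -1.01 with CPD-4645 (SE 0.14, adjusted p = 7.82e-05), from 23.6 ± 3.38 to 11.7 ± 1.62 CPM.

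Clathrin carries the other main route of uptake. Of 15 clathrin coat and adaptor genes, 1 rose and 4 fell after LPS challenge (median -0.15), and 6 rose and none fell with CPD-4645 (median 0.14). The 5 calls after LPS challenge became 2 (1 higher and 1 lower) without sham-vehicle mouse 1 or 3 or LPS-vehicle mouse 1 or 4, and 3 without sham-vehicle mouse 4, without the 2 shallowest libraries or with no filter on low counts, whereas voomWithQualityWeights gave 8 (against 23.9% of all genes). The clathrin heavy chain *Cltc* changed by -0.35 after LPS challenge (SE 0.08) and *Dab2*, an adaptor for lipoprotein receptors, by 0.95 (SE 0.22, adjusted p = 0.00416). With CPD-4645 the largest rise was that of *Ap2a1*, a subunit of the AP2 adaptor (0.42, SE 0.09, adjusted p = 0.00154). Against sham-vehicle mice 1 gene was higher (*Ap2a2*, 0.25, SE 0.08) and 1 lower (*Epn2*, -0.27, SE 0.08), and 4 were called with voomWithQualityWeights or a replicate block. No gene was called with scaling on the endothelial markers, and *Ap2a2* did not pass without sham-vehicle mouse 1 (adjusted p = 0.0534). These genes are abundant in neurons, and 4 of 10 neuronal markers fell after LPS challenge while 2 rose with CPD-4645. Their part in the clathrin result was not tested.

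Of 16 genes of vesicle traffic and fusion, 3 rose and 2 fell after LPS challenge (median -0.08), 5 rose and 2 fell with CPD-4645 (median 0.13), and 4 were higher and 2 lower against sham-vehicle mice (median 0.10). The 5 calls after LPS challenge became 3 without any 1 of sham-vehicle mice 1, 2 and 3, LPS-vehicle mice 1 and 2, and LPS-CPD-4645 mice 1, 2 and 4, and also with only the groups compared. *Stxbp3*, a syntaxin-binding regulator of vesicle fusion, rose from 19.8 ± 3.42 to 47.1 ± 8.12 CPM after LPS challenge (log2 change 1.25, SE 0.13, adjusted p = 1.86e-06). It stood at 47.3 ± 3.84 CPM in LPS-CPD-4645 mice, 1.26 above sham-vehicle mice (SE 0.14). The late endosomal *Rab7* changed by -0.34 (SE 0.07) after LPS challenge. With CPD-4645 the early endosomal *Rab5a* changed by 0.57 (SE 0.13) and the plasma membrane SNARE *Snap23* by -0.69 (SE 0.18, adjusted p = 0.0069). The syntaxin *Stx4a* was lower in LPS-CPD-4645 than in sham-vehicle mice (-0.63, SE 0.13).

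The Wnt pathway and its partners set barrier properties in brain endothelium, *Mfsd2a* and *Plvap* among their known targets. Of 18 such regulators, 1 rose and 5 fell after LPS challenge (median -0.36), 1 rose and none fell with CPD-4645 (median 0.08), and 3 were higher and 5 lower against sham-vehicle mice (median -0.36). DESeq2 called 10 of them after LPS challenge (against 22.6% of all genes). The 8 calls against sham-vehicle mice became 4 without sham-vehicle mouse 3, 5 without LPS-CPD-4645 mouse 2 and 14 with voomWithQualityWeights. The 1 call with CPD-4645 became 2 without LPS-vehicle mouse 2, 4 or 5 or LPS-CPD-4645 mouse 4, and in limma-voom, in voomWithQualityWeights, with a replicate block and with no filter on low counts. *Fzd4*, the Norrin and Wnt receptor, stood at 8.10 ± 1.29, 14.4 ± 3.09 and 28.6 ± 3.93 CPM in sham-vehicle, LPS-vehicle and LPS-CPD-4645 mice. It rose by 0.84 with LPS (SE 0.16, adjusted p = 0.00125) and was higher again with CPD-4645 by 0.98 (SE 0.16, adjusted p = 0.00022). *Sox17*, a transcription factor of arterial endothelium, fell from 14.9 ± 5.01 to 4.41 ± 2.09 CPM after LPS challenge (-1.71, SE 0.31, adjusted p = 0.000655) and stood at 6.09 ± 1.97 CPM with CPD-4645.

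VEGF and angiopoietin signalling also acts on vesicles and on *Plvap*. Of 13 genes, 3 rose and 4 fell after LPS challenge (median -0.22), none rose and 2 fell with CPD-4645 (median -0.27), and 2 were higher and 8 lower against sham-vehicle mice (median -0.66). The 7 calls after LPS challenge became 4 without sham-vehicle mouse 1 or 4 or LPS-vehicle mouse 2. The 2 calls with CPD-4645 became 1 without LPS-vehicle mouse 4 or 5 or LPS-CPD-4645 mouse 2, 3 or 4, and 4 without the 2 shallowest libraries. *Angpt2*, the angiopoietin released by activated endothelium, rose from 2.03 ± 0.323 to 19.1 ± 7.07 CPM (log2 change 3.22, SE 0.35, adjusted p = 3.26e-06), and stood at 16.0 ± 9.42 CPM with CPD-4645. Its receptor gene *Tek* fell from 13.7 ± 3.92 to 4.67 ± 2.31 CPM (-1.49, SE 0.31, adjusted p = 0.00191) and stood at 5.26 ± 0.750 CPM with CPD-4645. *Tie1*, the partner of that receptor, changed by -1.02 with CPD-4645 (SE 0.23, adjusted p = 0.00295). *Tek* and *Tie1* are also on the list of endothelial markers.

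Of 14 signalling partners that caveolin-1 is known to bind or that sit in caveolae, 3 rose and 5 fell after LPS challenge (median -0.10), 2 rose and 3 fell with CPD-4645 (median 0.03), and 3 were higher and 3 lower against sham-vehicle mice (median -0.01). The 5 calls with CPD-4645 became 2 (1 higher and 1 lower) without LPS-vehicle mouse 1 or 4 or LPS-CPD-4645 mouse 2, and 3 without LPS-vehicle mouse 2 or 5 or LPS-CPD-4645 mouse 1 or 4 and with only the groups compared. The calcium channel gene *Trpv4* rose from 4.45 ± 2.07 to 15.5 ± 2.92 CPM after LPS challenge (1.80, SE 0.24, adjusted p = 2.39e-05) and was lower with CPD-4645, at 8.11 ± 1.12 CPM (-0.93, SE 0.23, adjusted p = 0.00496). The endothelin receptor gene *Ednrb* changed by -0.73 (SE 0.10, adjusted p = 3.29e-05) after LPS challenge and by -0.48 (SE 0.10) between LPS-CPD-4645 and sham-vehicle mice. The TGF-beta receptor gene *Tgfbr1* changed by 0.38 with CPD-4645 (SE 0.13, adjusted p = 0.0388), a call kept by 12 of 23 alternatives. *Hmox1*, heme oxygenase-1, was 1.04 higher in LPS-CPD-4645 than in sham-vehicle mice (SE 0.22).

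Beside *Mfsd2a*, 12 genes of fatty acid and lysolipid handling were followed: 3 rose and 1 fell after LPS challenge (median 0.00), 3 rose and 3 fell with CPD-4645 (median -0.01), and 3 were higher and 2 lower against sham-vehicle mice (median 0.08). *Spns2*, which exports sphingosine-1-phosphate from endothelium, stood at 64.4 ± 2.51, 114.8 ± 4.82 and 193 ± 19.7 CPM in sham-vehicle, LPS-vehicle and LPS-CPD-4645 mice. Its difference between the LPS groups was 0.75 (SE 0.07, adjusted p = 3.77e-06). *Abca1*, the cholesterol exporter, rose by 1.02 after LPS challenge (SE 0.14, adjusted p = 2.98e-05). *Fabp7*, the brain fatty acid-binding protein of glia, fell in the same order of groups, from 37.3 ± 7.65 to 18.7 ± 7.04 and 8.30 ± 1.48 CPM (-1.01 after LPS challenge, SE 0.23, and -1.16 with CPD-4645, SE 0.24).

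**Figure D4:**
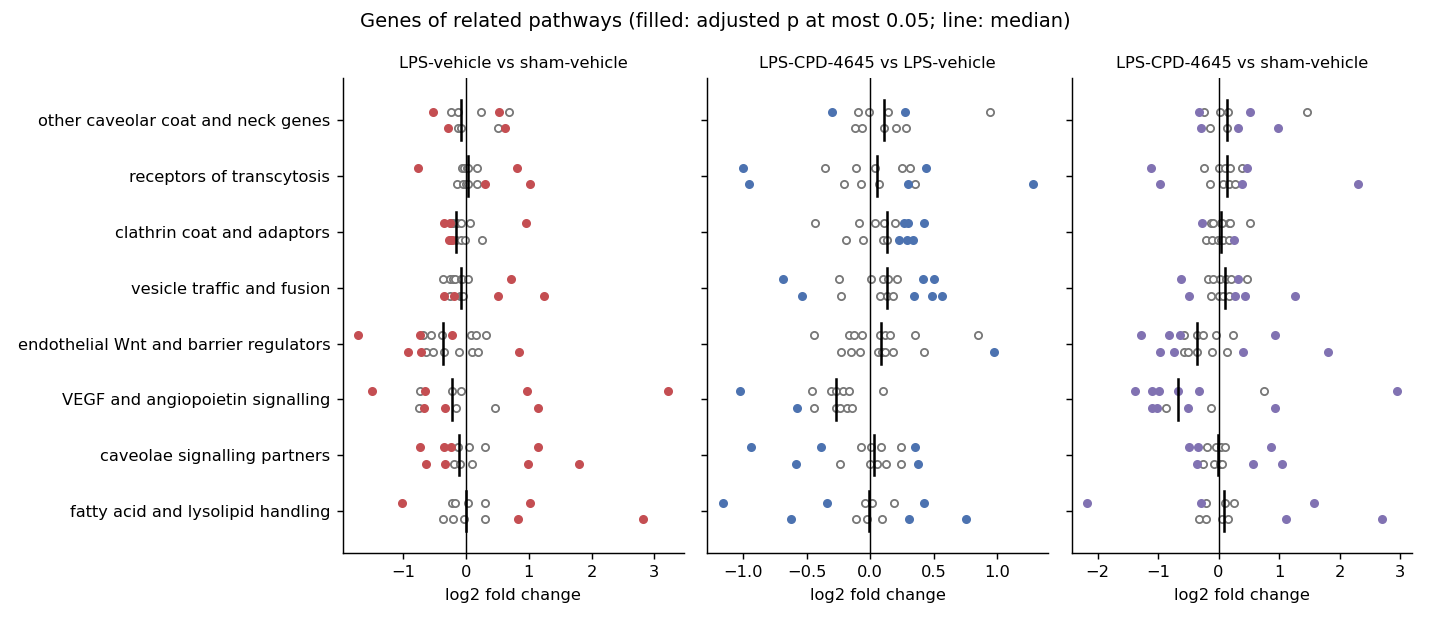
Log2 fold changes (horizontal axes, a different range in each panel) of the tested genes of the 8 related lists in the 3 comparisons. Each point is a gene, filled where its adjusted p is at most 0.05, and the vertical strokes are list medians. The medians lie between -0.36 and 0.03 after LPS challenge, and the point furthest to the right there is *Angpt2* at 3.22.

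Scaled on the endothelial markers, the split of calls in several lists turned. These counts include the shift of all genes under this scaling, whose median was -0.59 after LPS challenge (46.2% called) and 0.39 with CPD-4645 (21.6% called). Between LPS-CPD-4645 and sham-vehicle mice the median was -0.19 (16.8% called). After LPS challenge the caveolar coat and neck list then gave 0 higher and 6 lower, the clathrin list 0 higher and 12 lower, vesicle traffic 1 higher and 11 lower, the Wnt and barrier regulators 0 higher and 12 lower, and fatty acid handling 1 higher and 6 lower. *Fzd4*, *Dab2*, *Abca1*, *Ehd1* and *Ager* kept their sign but no longer passed there. With CPD-4645 the Wnt and barrier regulators gave 5 higher and 0 lower, and the VEGF and angiopoietin list no call. There the caveolae signalling partners gave 2 higher and 0 lower, and the caveolar coat and neck list 1 higher and 0 lower. Against sham-vehicle mice the caveolar coat and neck list and the clathrin list gave no call. The receptors of transcytosis then gave 1 higher and 2 lower, vesicle traffic 1 higher and 1 lower, and the signalling partners 1 higher and 0 lower. *Fzd4* at 1.43 and *Spns2* at 1.15 with CPD-4645, and *Angpt2* and *Trpv4* after LPS challenge, were called under both scalings. The CPD-4645 values of *Cd320* (-0.64, adjusted p = 0.0647), *Tie1* (-0.55, adjusted p = 0.0960), *Trpv4* (-0.56, adjusted p = 0.132) and *Snap23* (-0.25, adjusted p = 0.514) no longer passed under the endothelial scaling. *Tie1* and *Tek* are among the 12 markers that set this scaling, so their shift is partly built in. Against sham-vehicle mice *Ap2a2* (0.069, adjusted p = 0.894), *Epn2* (-0.46, adjusted p = 0.225) and *Ednrb* (-0.65, adjusted p = 0.0696) no longer passed either. The calls of *Ror1* (0.77, adjusted p = 0.209) and *Pacsin1* (-0.48, adjusted p = 0.223) were also lost.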

How the data were processed

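Neurovasculature of 13 mice was sequenced by the authors from stranded polyA libraries made from 50 ng of RNA. Per the labels' processing notes, bcl2fastq 2.15.0.4 and STAR 2.5.2a were used on mm10 (GRCm38), with the GENCODE M9 basic annotation per the study's methods. The authors deposited raw gene counts, 1 whole-number value per gene and library, with no normalization. Positions and symbols came from the full GENCODE M21 annotation, which matched 47224 of 47643 identifiers, and exon lengths from its basic set.

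Groups and mouse numbers came from the sample titles. Each library was treated as 1 mouse. In all 22 pairs of mice of the same group, counts differed by more than sampling noise (mean chi-square per gene from 9.82 to 61.1). Total counts were 22314249 to 35587842 in sham-vehicle, 7813559 to 55133373 in LPS-vehicle and 12548404 to 29348315 in LPS-CPD-4645 mice, and the deeper libraries carry less counting error.

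The deposited counts entered edgeR 4.0.16 (R 4.3.3) after filterByExpr (minimum count 10, minimum total 15), which left 17285 of 27934 genes with any count. TMM factors ran from 0.908 to 1.08. All mice entered 1 quasi-likelihood fit of the 3 groups, without covariates (common dispersion 0.0334). A gene was called where the p adjusted by Benjamini and Hochberg over all genes tested was at most 0.05, and calls that also changed at least 2-fold, the study's threshold, were counted beside it. SE and 95% intervals of log2 changes came from the same fit. CPM were computed on TMM-scaled totals, and RPKM from them per exon length. Count ratios were compared by two-sided exact permutation over mice (scipy 1.17.1). On simulated counts with the comparison of LPS-vehicle and sham-vehicle mice over 17285 genes, 54% of genes changed 1.5-fold and 78% of those changed 2-fold were recovered.

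The 8 genes, the 8 pathway lists and the 18 marker lists were chosen with earlier results of these data known, and no list was tested as a set. Named are the 8 genes in every comparison, and from each pathway list and comparison the largest rise and the largest fall among called genes of at least 1 CPM. For *Cav1*, *Plvap* and *Mfsd2a* the 3 most similar genes are named as well. Alternatives were DESeq2's size factors, scaling on 12 endothelial markers, a mean count of at least 50, all genes with any count, limma-voom and voomWithQualityWeights (limma 3.58.1; limma-voom was the study's test), DESeq2 1.42.0, only the groups compared, a replicate block, the 2-fold threshold and leaving out each mouse. Leaving out the 2 shallowest libraries and the count ratios were added after seeing the data. Promoter sequences are from RefSeq (GRCm38.p6).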

Additional observations from a re-analysis of the deposited data

Results flagged for a closer look

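In 3 of the 24 sets of values (8 genes in 3 groups of 4 or 5 mice), 1 mouse lay far from the rest of its group by Dixon's criterion, where chance marks about 1 in 20 sets. All 3 were LPS-vehicle mice, and each was a different mouse. *Cav1* in LPS-vehicle mouse 1 was 6.15 CPM, and the other 4 mice had 9.81 to 11.2 CPM, above all LPS-CPD-4645 mice (6.66 to 8.79 CPM). *Cavin2* in LPS-vehicle mouse 4 was 10.2 CPM, with the other 4 at 6.46 to 6.97 CPM, and without this mouse the change after LPS challenge passed the test (log2 change -0.58, edgeR adjusted p = 0.0135). *Ehd2* in LPS-vehicle mouse 5 was 17.9 CPM, with the other 4 at 10.96 to 12.8 CPM, and without this mouse the difference between the LPS groups no longer passed (-0.52, edgeR adjusted p = 0.0710). *Plvap* in sham-vehicle mouse 2, at 6.39 CPM, did not meet the criterion for 4 mice.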

How the results depend on the processing

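Of the values of the 8 genes under all alternatives, 511 kept direction and side of the threshold, 18 newly passed it, 14 no longer passed and 9 changed sign, none of which had been called. With the 2-fold threshold the called genes numbered 2, 1 and 3 after LPS challenge, between the LPS groups, and between drug-treated and sham-vehicle mice in that order, where 5, 3 and 5 were called without it. Leaving out 1 mouse at a time gave 3 to 6, 2 to 4 and 5 to 6 called genes, while the share of all genes called ran from 14.4% to 20.2%, from 22.9% to 31% and from 31.9% to 40.4%. Under the endothelial scaling the sign changed for *Ehd2* (-0.45) and *Plvap* (-0.50) after LPS challenge, and for *Cav1* (0.18), *Cavin1* (0.14), *Cavin3* (0.16) and *Ehd1* (0.081) with CPD-4645. By construction it shifts all genes together, and the endothelial markers had moved between groups. *Plvap* after LPS challenge was -0.025 with voomWithQualityWeights and from -0.17 (without sham-vehicle mouse 2) to 0.24 (without sham-vehicle mouse 3) with 1 mouse left out, and *Ehd2* from -0.0075 (without LPS-vehicle mouse 5) to 0.19 (without sham-vehicle mouse 2). Without the 2 shallowest libraries, *Mfsd2a* with CPD-4645 was -0.043. For these values of *Plvap*, *Ehd2* and *Mfsd2a* the cause was not tested. Among the named pathway genes 978 values were kept, 56 no longer passed and 1 changed sign.

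The mouse numbers are shared between groups, but mice with the same number did not deviate together (correlations from -0.035 to 0.114, 1 of 12 above 0.1), so the numbers do not pair the mice. With a replicate block 5, 3 and 6 of the 8 genes were called, against 20.5%, 29.4% and 39.4% of all genes, the added one being *Ehd2* against sham-vehicle mice (-0.55, adjusted p = 0.0286). Depth limits *Cavin2*, *Cav1*, *Cav2* and *Ehd2* most, whose lowest counts were 54, 79, 86 and 87.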
